A study of Bos taurus with 6 samples.

Results

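The cytosolic ribosomal proteins are the proteins of the ribosomes in the cytoplasm, and their messenger RNAs were measured here in single bovine morulae, the compact embryos that precede the blastocyst. Members were all annotated symbols that start with RPL or RPS and a digit, plus RPLP0, RPLP1, RPLP2 and RPSA, without ribosomal S6 kinases, comma-joined symbols of merged loci and names ending in L1. This rule found 81 of 13683 annotated symbols. RPS19BP1, which encodes a binding partner of RPS19, is not a ribosomal protein and was set aside, which left 80 symbols, 47 of the large subunit and 33 of the small subunit.

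The study asked what inhibition of MAT2A, the enzyme that makes the methyl donor S-adenosylmethionine, does to the preimplantation embryo. Control morulae, 3 in number, were cultured in 0.1% DMSO, the solvent of the inhibitor. MAT2A-inhibited morulae, also 3, were cultured with 20 µM FIDAS-5, a MAT2A inhibitor, and the labels give no DMSO content for them. In both groups oocytes were fertilised in vitro, and the exposure ran from day 3 (72 h from insemination, at 8 to 16 cells) to day 6 (144 h) at 5% oxygen. Each library came from 1 whole embryo, and separate cultures are not named in the labels, so p-values reflect only how far these embryos spread. No strain, parent or sex is named in the labels.

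The large subunit joins amino acids at its peptidyl transferase centre and passes the growing chain out through an exit tunnel, while the small subunit holds the messenger RNA and decodes it. Each ribosome carries mostly 1 copy of each protein, and the messenger RNAs share a pyrimidine tract at their start through which mTORC1 signalling sets their translation. In cattle the main activation of the embryonic genome falls at the 8 to 16 cell stage, after which the embryo makes its own ribosomes.

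Depth recovered from the deposited bounds was 46500000 to 59900000 fragments per library. POU5F1, a pluripotency factor of the early embryo, was at 312, 431 and 341 FPKM (fragments per kilobase of transcript, scaled to the depth of the library) in controls and at 327, 255 and 376 FPKM after inhibition. Among the 8 morula markers, DPPA3 lay wholly lower after inhibition, at 661 to 881 FPKM against 454 to 575 FPKM. So did NANOG, at 2.54 to 20.3 FPKM against 1.16 to 1.88 FPKM. SOX2 lay wholly higher, at 27.6 to 41.5 FPKM against 45.2 to 50.8 FPKM. KRT8, KRT18, GATA3 and CDX2 overlapped between the groups, as did POU5F1. Over all tested symbols 8.27% lay wholly higher and 5.18% wholly lower. Of 8 cumulus and stroma markers, COL1A1, VIM and HAS2 were below 1 FPKM in every library. The summed level of the list was 60.3 to 129 FPKM in the control group and 43.5 to 82.9 FPKM after inhibition. SERPINE2 carried most of it, at 53.9 to 122 FPKM and 41.0 to 80.2 FPKM. DCN and LUM were highest in Control 2, at 11.0 and 4.81 FPKM, and below 1 FPKM in every other library. Summed over 3 sperm markers the level was 2.53 to 4.79 FPKM against 5.13 to 11.5 FPKM. Over 2 globins it was 63.1 to 132 FPKM against 81.9 to 109.8 FPKM, nearly all from HBA, with HBB at most 1.72 FPKM. The part of these transcripts in the results below was not tested. The libraries of MAT2A-inhibited 2 and 3 stood apart by carrying transcripts of the Y chromosome. EIF1AY was at 38.2 and 106.9 FPKM and DDX3Y at 14.96 and 7.94 FPKM in them, and both were listed at 0 in the other 4 libraries. XIST, the RNA that coats the inactive X chromosome, was at 0.164 and 0.127 FPKM in those 2 libraries and at 7.49 to 61.3 FPKM in the other 4. The X-linked members, the ratio of the subunits, and the median and sum of the family are given with and without these 2 libraries.

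Ribosomal protein messages were among the most abundant of the morula. Of the 80 symbols, 75 entered the test, which took the 7319 symbols at 1 FPKM or more in at least 3 libraries. All 75 were among the 500 most abundant tested symbols, 34 were among the 100 most abundant and 14 among the 50 most abundant. Their mean FPKM over the 6 libraries had a median of 1671, and 52 lay between 1000 and 3000 FPKM, with 10 above and 13 below. The 90th percentile was 4.19 times the 10th. FPKM is per length, so levels can be set side by side between genes, but only roughly. The midpoint of the deposited bounds gave other levels for some members, as described below.

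By FPKM the most abundant member was RPS25, a protein of the head of the small subunit (bosTau8 chromosome 15, 30115927 to 30117641). It was at 4822, 6952 and 7859 FPKM in the control group and at 7923, 8607 and 9054 FPKM after inhibition. The groups did not overlap, and Control 1 was far below the other 5 libraries, but by the midpoint of the deposited bounds the groups overlapped. RPS29, a small zinc-binding protein of the same head (chromosome 10, 42669270 to 42671123), was at 7354, 6882 and 7630.4 FPKM against 8039.8, 7188 and 7084 FPKM, with the 2 groups interleaved. By the midpoint of the bounds, RPS29 averaged 5599.7 FPKM and RPS25 5067 FPKM, so their order depends on the value used. RPS27A, made as a fusion with ubiquitin (chromosome 11, 37823146 to 37825445), was at 5598, 5972 and 5472 FPKM against 5102, 5014 and 6783 FPKM, and MAT2A-inhibited 3 was the highest library. RPL39, a very short protein that lines the exit tunnel, came next at a mean of 5050.1 FPKM, or 2257 FPKM by the midpoint of its bounds, and is described with the X-linked members. RPL27, RPL35A, RPL36AL and RPL38 of the large subunit followed, and RPS27 and RPL23 completed the 10 most abundant. RPL27 was at 4286 ± 379 FPKM in the control group and 4996 ± 791 FPKM after inhibition, RPL35A at 4157 ± 854 and 4572 ± 336 FPKM with overlap by FPKM and none by midpoint, and RPL38, known in the mouse for its part in the translation of Hox messages, at 3623 ± 174 and 3846 ± 121 FPKM (SD, n = 3 each). These neighbours in the order did not differ beyond their spread. The 10 most abundant members together carried 32.5% of all ribosomal protein FPKM.

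**Figure D1:**
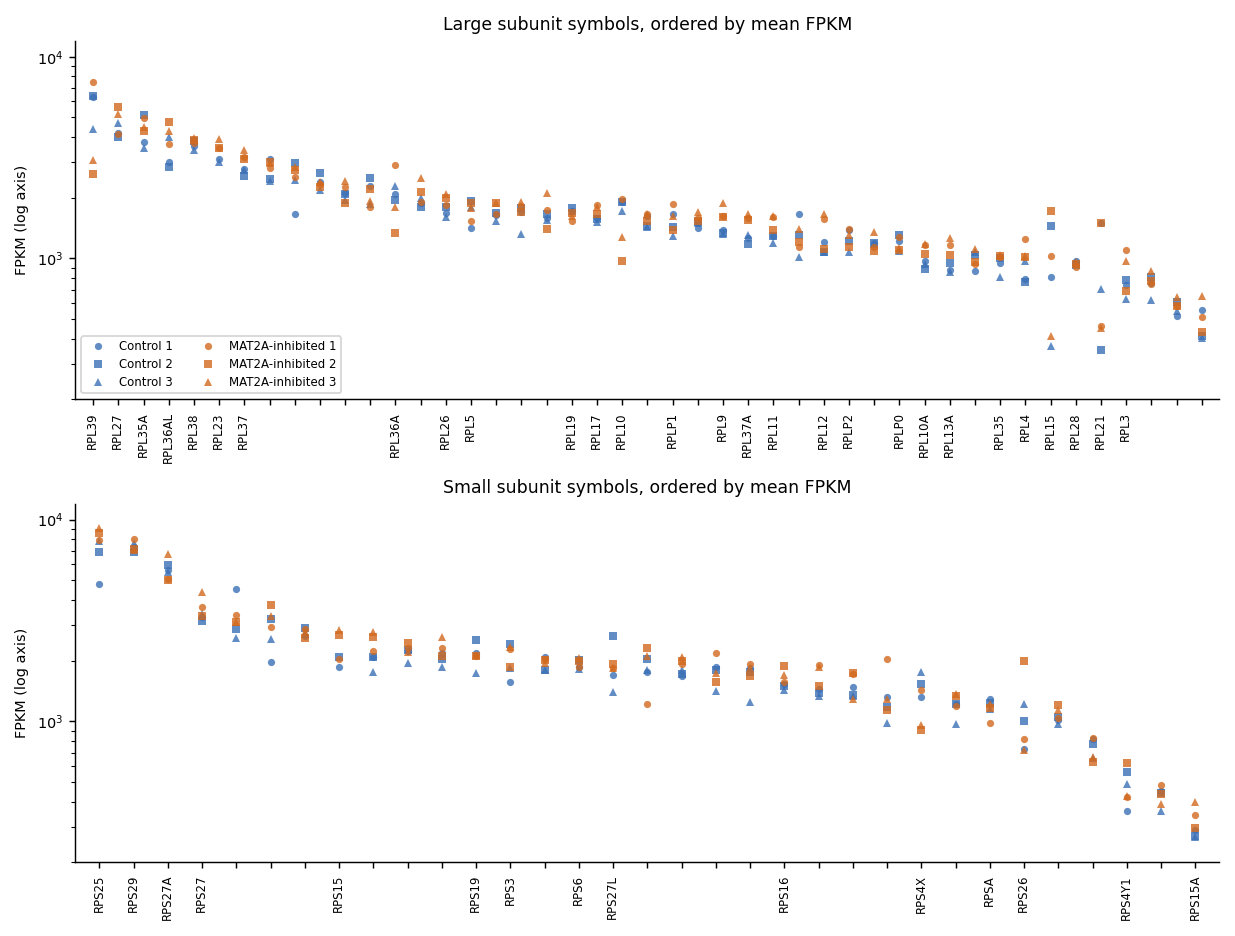
FPKM of each ribosomal protein symbol (log axis) in the 3 control libraries (blue) and 3 MAT2A-inhibited libraries (orange), large subunit above and small subunit below, ordered by mean, with labels for symbols named in the text. Most symbols lie between 1000 and 3000 FPKM, RPS25, RPS29, RPS27A and RPL39 lead, and RPL21 and RPL15 spread widely within both groups.

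The order of the members was much the same in every embryo. Spearman's rho between 2 libraries over the 75 tested members was 0.82 to 0.94 for the 6 pairs within a group and 0.87 to 0.93 for the 9 pairs between groups. These correlations are across genes, which share the library, and are a description. For the median member the highest library was 1.40 times the lowest, and for 49 members it was under 1.5 times. The SD within groups had a median of 0.16 on the log2(FPKM + 1) scale, against 0.40 over all tested symbols and 0.26 over the 331 other tested symbols at least as abundant as the lowest tested member. These 331 are not matched in level, since their median was 817 FPKM against 1671 FPKM for the members. RPL28 was the steadiest by FPKM, at 976, 928 and 955 FPKM in the control group and 909, 936 and 965 FPKM after inhibition.

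A few members broke this regularity, in both groups alike. RPL21 (chromosome 12, 32852825 to 32859546) was at 1493, 350.5 and 702 FPKM in the control group and at 459, 1495 and 452 FPKM after inhibition. RPL15 (chromosome 27, 41930643 to 41934590) was at 811, 1441 and 368 FPKM against 1031, 1712 and 412 FPKM. Both belong to the large subunit, yet their high libraries were not the same, since RPL21 was high in Control 1 and MAT2A-inhibited 2 and RPL15 in Control 2 and MAT2A-inhibited 2. RPS26, a small subunit protein near the messenger RNA exit, was at 726, 999 and 1217 FPKM against 815, 1983 and 722 FPKM, with MAT2A-inhibited 2 far above the rest. RPL21 and RPL15 had log2 SDs within groups of 1.02 and 1.01, and RPS26 of 0.62.

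The deposited bounds set a limit on the values of single members. Each FPKM comes with a lower and an upper bound, and the midpoint of these is a second value for the same locus. For 44 of the 75 tested members the ratio of FPKM to midpoint differed by more than 1.2 times between libraries. With the midpoint in place of the FPKM, a choice made after the data were seen, the median SD within groups was 0.23 in place of 0.16, and 60 of 75 members had the smaller SD by FPKM. By midpoint the SDs of RPL28, RPL21 and RPL15 were 0.093, 1.10 and 1.10. For 14 members it changed whether the groups overlapped, with 8 no longer apart and 6 newly apart. Values in the text are FPKM unless the midpoint is named. Members of this family also have many processed copies in mammalian genomes, and how fragments that match several copies were assigned is not given in the sources used here, so the values of single members are uncertain to that extent.

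**Figure D2:**
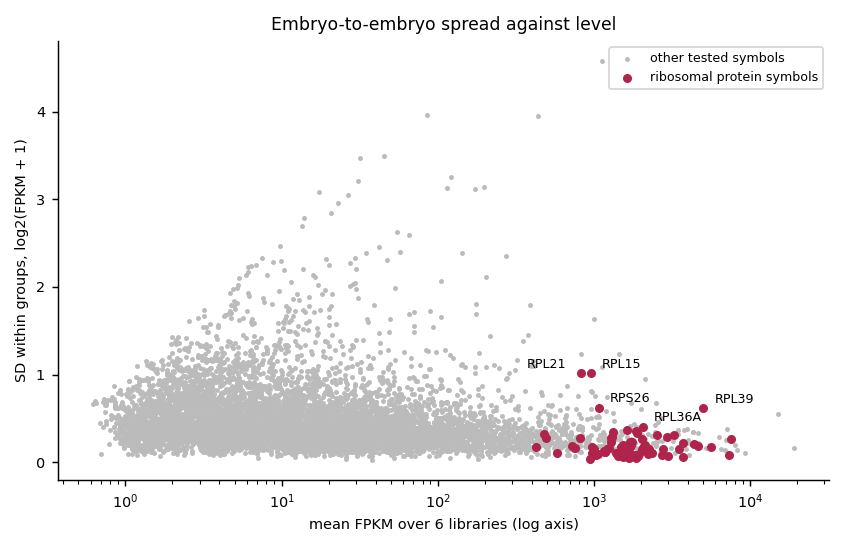
SD within groups on the log2(FPKM + 1) scale against mean FPKM over the 6 libraries (log axis) for the 75 tested ribosomal protein symbols (red) and the other tested symbols (grey). Ribosomal protein symbols sit at the abundant end with a median SD of 0.16, apart from RPL21, RPL15, RPS26 and RPL39.

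Summed over the family, ribosomal protein messages made up 15.5%, 16.1% and 14.3% of all annotated FPKM in the 3 controls and 17.1%, 15.6% and 16.4% after inhibition. These shares overlapped, with means of 15.3% ± 0.920 and 16.4% ± 0.744 (SD, n = 3 each). The sum itself, over the 78 symbols with a value in every library, was 144499, 150058 and 138563 FPKM against 157805, 152409 and 158907 FPKM. Here the groups did not overlap, Control 3 was the lowest library, and the ratio of the means was 1.08. FPKM is scaled to depth and a whole embryo was read each time, so the number of cells and the RNA per cell cannot be told apart.

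The balance of large and small subunit messages overlapped between the groups. The 46 large subunit symbols summed to 78018, 79499 and 73015 FPKM in the control group and to 84926, 79375 and 83302 FPKM after inhibition, which overlapped. The 32 small subunit symbols summed to 66481, 70559 and 65548 FPKM against 72879, 73034 and 75605 FPKM, which did not. These sums are not scaled to all annotated FPKM, and the share of the family so scaled overlapped. The median log2 deviation of all tested symbols from their own means did not overlap either. It was -0.068 to 0.003 in the control group and 0.015 to 0.039 after inhibition. The ratio of large to small was 1.17, 1.13 and 1.11 in the 3 controls and 1.17, 1.09 and 1.10 after inhibition, and the ranges overlapped. On the log2 scale this ratio differed by -0.03 between the group means, by 0.03 without the 2 libraries with Y-linked transcripts and by 0.01 without the X-linked members. The sums are values over members chosen together and were not tested.

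**Figure D3:**
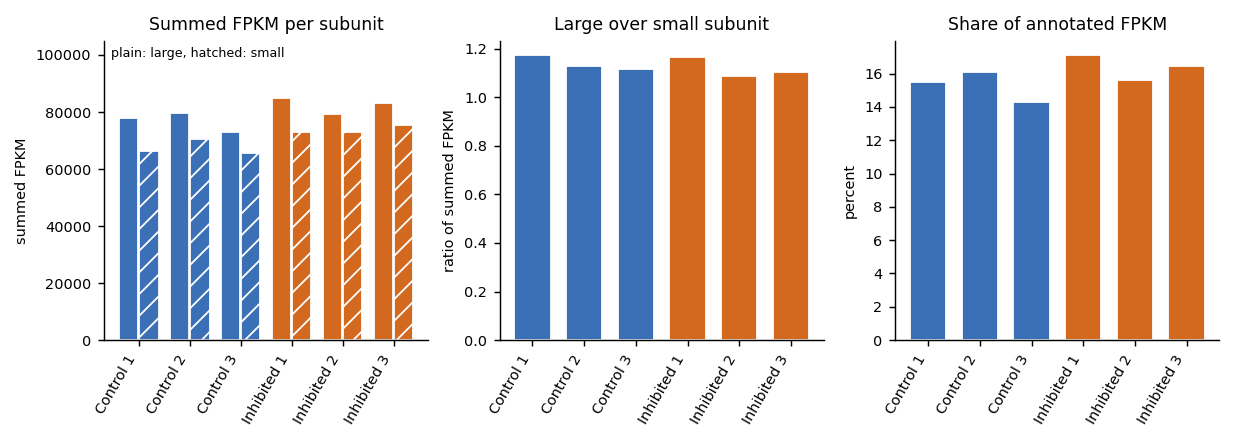
Per library, the summed FPKM of large (plain) and small (hatched) subunit symbols, the ratio of these sums, and the percent of annotated FPKM carried by ribosomal proteins, with controls in blue and MAT2A-inhibited morulae in orange. The ratio stays between 1.09 and 1.17 in all 6 libraries and the share between 14.3% and 17.1%.

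No ribosomal protein message passed the test between MAT2A-inhibited and control morulae. With limma on log2(FPKM + 1), a scale that understates the change of low genes, the adjusted p of the 75 members was 0.746 to 0.995 (Benjamini-Hochberg over all 7319 symbols), and 3 symbols passed among all tested, 0.041%. At an unadjusted limma p under 0.05 there were 4 members of 75, or 5.33%, against 6.64% of all tested symbols. The log2 difference, MAT2A-inhibited minus control, lay above 0 for 56 members, 74.7%, against 54.2% of all tested symbols. Its median over the members was 0.13, a fold of 1.10, against 0.04 over all tested symbols, and the members ranged from -0.51 to 0.41. The median 95% interval of a member reached 0.38 to either side of its estimate. It excluded 0, before adjustment, only for the 4 members with an unadjusted limma p under 0.05, RPL37A, RPL13A, RPL9 and RPS4X.

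The median difference lay above 0 for both subunits, and its size and the count of members without overlap moved with the scaling. Of 44 large subunit members 33 had a difference above 0, with a median of 0.14, and of 31 small subunit members 23 did, with a median of 0.12. All 3 MAT2A-inhibited values lay above all 3 control values for 16 members, 21.3%, against 8.27% of all tested symbols. They lay below for 1 member, RPL19, 1.33%, against 5.18%. With median-of-ratios scaling the count of members above 0 was 50 of 75 with a median of 0.08 (all tested symbols -0.01), 8 members lay wholly above and 2 wholly below, against 6.67% and 6.48% of all tested symbols. With TPM scaling 13 lay wholly above and 1 wholly below, against 7.94% and 5.40%. By the midpoint of the bounds 12 lay wholly above, against 7.88% of all tested symbols, and 3 wholly below, against 5.08%. RPL37A, RPL13A, RPL9, RPL37, RPL10A and RPS16 were among the 8 members wholly above by both FPKM and midpoint. Control 3 had the lowest levels, with 15 of 75 members above their own mean over the libraries, while the other 5 libraries had between 32 and 55, and without Control 3 the median difference was 0.08, against 0.06 over all tested symbols. Control 3 also held the highest levels of the epithelial and trophectoderm markers KRT8, KRT18 and GATA3, at 400.5, 363 and 83.4 FPKM, against at most 229.9, 117 and 33.9 FPKM in the other 5 libraries, and their part in the result was not tested.

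**Figure D4:**
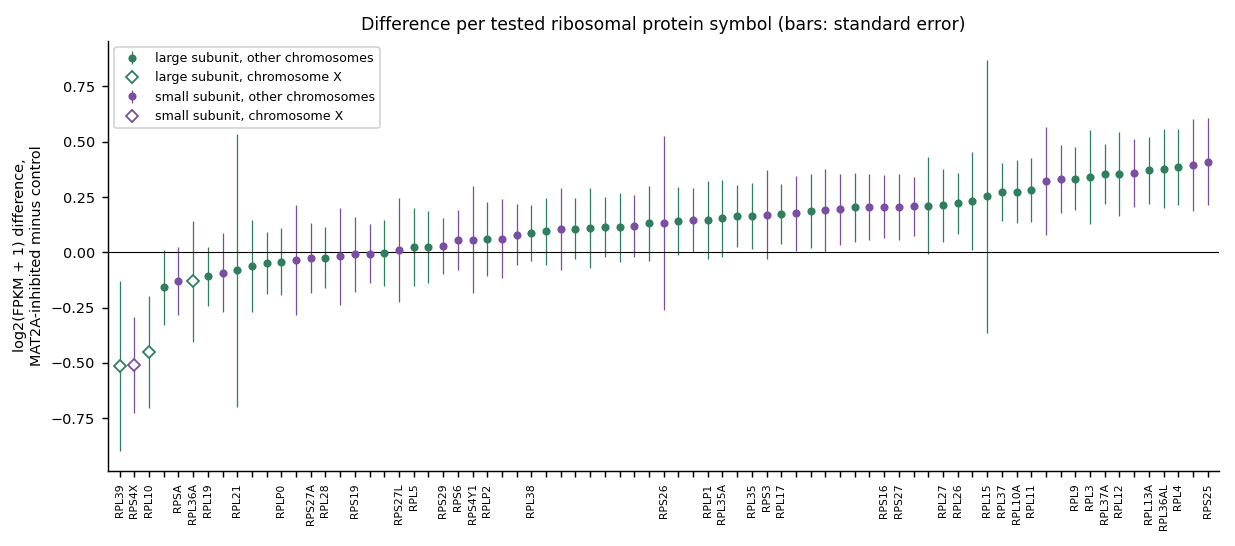
Log2(FPKM + 1) difference, MAT2A-inhibited minus control, with its standard error for each of the 75 tested ribosomal protein symbols in order of size (symbols named in the text are labelled), coloured by subunit, with open diamonds for genes on chromosome X. Most points lie between 0 and 0.41, and 3 of the 4 X-linked symbols form the low end.

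The members with the smallest p values were proteins of both subunits. RPL37A, a small zinc-binding protein of the large subunit (chromosome 2, 105202276 to 105204899), was at 1261, 1175 and 1309 FPKM in the control group and at 1579, 1547 and 1657 FPKM after inhibition. Every MAT2A-inhibited embryo lay above every control, with a log2 difference of 0.35 ± 0.14 (SE, limma adjusted p = 0.746). RPL13A, known also for a role in silencing inflammatory messages outside the ribosome (chromosome 18, 56394557 to 56398083), was at 873, 944 and 855 FPKM against 1163, 1042 and 1258 FPKM, again without overlap, and differed by 0.37 ± 0.15 on the log2 scale. RPL9, at the base of the stalk (chromosome 6, 60210359 to 60215120), was at 1388, 1335 and 1328 FPKM against 1613, 1612 and 1891 FPKM and differed by 0.33 ± 0.14. RPL37 and RPL36AL had log2 differences of 0.27 and 0.38, RPL37 without overlap and RPL36AL, an autosomal copy of RPL36A, with overlap. All had a limma adjusted p of 0.746 or 0.750, the smallest values among the members.

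Members were also read by their place in the ribosome. Of 8 proteins of the exit tunnel, the groups did not overlap by FPKM for RPL4, RPL17, RPL26 and RPL35, with higher values after inhibition, and for RPL19, with lower ones, against 8.27% above and 5.18% below over all tested symbols. By midpoint all of these but RPL19 overlapped. RPL4, which forms the narrowest stretch of the tunnel (chromosome 10, 13318874 to 13323526), was at 789, 763 and 967 FPKM in the control group and at 1245, 1011 and 1033 FPKM after inhibition, a log2 difference of 0.39 ± 0.17. RPL19, which reaches from the tunnel exit to the small subunit, was at 1718, 1769 and 1712 FPKM against 1527, 1676 and 1624 FPKM, a difference of -0.11 with a limma adjusted p of 0.857. The 4 proteins of the stalk, which recruits the translation factors, had a median of 0.10. RPLP0, its base, was at 1205 ± 109.8 FPKM in the control group and 1169 ± 88.5 FPKM after inhibition, RPLP1 at 1461 ± 183 and 1623 ± 244 FPKM, and RPLP2 at 1228 ± 154 and 1279 ± 136 FPKM (SD, n = 3 each). All of these overlapped. RPL12, the other stalk protein, had a difference of 0.35, but its row spans only 599 to 634 bases of chromosome 10.

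RPL5 and RPL11, which carry the 5S ribosomal RNA into the large subunit and, when free, bind the p53 regulator MDM2, differed in opposite ways by FPKM and by midpoint. RPL5 was at 1414, 1932 and 1793 FPKM against 1531, 1889.7 and 1778 FPKM, a log2 difference of 0.02. By midpoint it lay wholly above, with a difference of 0.28. RPL11 was at 1296, 1294 and 1196 FPKM against 1600.4, 1383 and 1625 FPKM, without overlap by FPKM, a difference of 0.28 with a limma adjusted p of 0.770. By midpoint it overlapped, with a difference of -0.13, so the contrast between the genes turned over. Neither passed the test, and the difference between the genes was not tested. RPL3, next to the peptidyl transferase centre, was at 736, 780.4 and 630.1 FPKM against 1102, 686 and 973 FPKM, a difference of 0.34 with overlap. By midpoint the difference of RPL3 was 0.13. Of the 3 tested members at this centre and the subunit interface, RPL3, RPL8 and RPL10, 1 lay above 0, with a median of -0.06.

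In the small subunit, the 4 tested proteins around the entry of the messenger RNA and the decoding site all had differences above 0, with a median of 0.14, and all overlapped by FPKM, while 1 of them lay wholly above by midpoint. RPS3, at the entry, was at 1558, 2424 and 1844 FPKM against 2285, 1857 and 2335 FPKM. Among the 12 proteins of the head, 8 lay above 0, and RPS16 and RPS25 were among those without overlap by FPKM. RPS6, the substrate of the S6 kinases, was at 1895 ± 99.1 FPKM in the control group and 1968 ± 102 FPKM after inhibition. RPS19, whose loss causes Diamond-Blackfan anaemia, was at 2154 ± 398 and 2116 ± 14.2 FPKM, and RPSA, on the solvent side of the small subunit, at 1221 ± 66.8 and 1119 ± 119.9 FPKM (SD, n = 3 each). None of these 3 differed beyond its spread.

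The 4 genes on chromosome X all had differences below 0, and their values divided by library. RPL39 (chromosome X, 3997929 to 4001326) was at 6286, 6409 and 4389.9 FPKM in the control group and at 7516, 2635 and 3065 FPKM in MAT2A-inhibited embryos 1 to 3. The last 2 are the libraries with Y-linked transcripts, and MAT2A-inhibited 1 was the highest of all. RPS4X, a protein of the small subunit body (chromosome X, 83532066 to 83536507), was at 1325, 1532 and 1747 FPKM against 1424, 905 and 953 FPKM. RPL10, which joins the large subunit late in its maturation (chromosome X, 40364800 to 40367160), was at 1908, 1899.8 and 1716 FPKM against 1967, 971 and 1274 FPKM. RPL36A, near the exit site of the transfer RNA (chromosome X, 55210107 to 55213507), was at 2083, 1954 and 2277 FPKM against 2915, 1341 and 1806 FPKM. By FPKM the 2 libraries with Y-linked transcripts were for all 4 genes below the other 4 without overlap, at a ratio of means of 0.46 for RPL39, 0.60 for RPL10, 0.62 for RPS4X and 0.68 for RPL36A. By midpoint, by which RPL10 lay wholly below in the inhibited group, this held for RPL10 and RPS4X and not for the other 2. RPL39 was then at 2504, 2372 and 1696 FPKM against 3111, 2669.6 and 1192 FPKM, so that MAT2A-inhibited 2 lay among the high libraries. RPL36A was at 2113, 881 and 1063 FPKM against 1437, 1357 and 1832 FPKM by midpoint, with no order by library type.

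The log2 differences between the study's groups were by FPKM -0.51 ± 0.38 (SE) for RPL39 (-0.0084 by midpoint), -0.51 ± 0.22 for RPS4X, -0.45 ± 0.25 for RPL10 and -0.13 ± 0.27 for RPL36A, with limma adjusted p from 0.746 to 0.914. Without the 2 libraries with Y-linked transcripts, which leaves 1 MAT2A-inhibited embryo whose spread is assumed to be that of the controls, they were 0.42, -0.10, 0.10 and 0.47. Other X-linked genes had like values. Of 238 tested X-linked symbols outside the family 37 had a difference above 0, with a median of -0.47, beside a median of -0.48 over the 4 members and of 0.06 over the autosomal symbols outside the family. Leaving out the X-linked members, 56 of 71 ribosomal protein symbols lay above 0 with a median of 0.15. Inhibition and the presence of Y-linked transcripts cannot be told apart for these genes, since both libraries with such transcripts belong to the inhibited group.

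**Figure D5:**
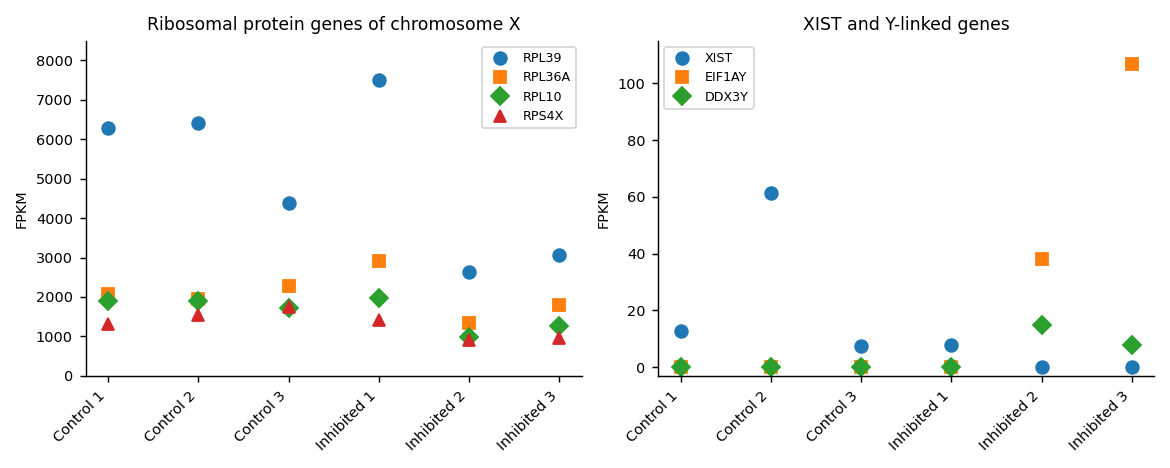
FPKM per library of the 4 ribosomal protein genes of chromosome X (left) and of XIST, EIF1AY and DDX3Y (right). In MAT2A-inhibited 2 and 3, where EIF1AY and DDX3Y are above 0 and XIST is under 1 FPKM, all 4 ribosomal protein genes are at their lowest FPKM.

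Paralogs and gene copies ranged from barely detected to abundant. RPL3L and RPL10L, the muscle and testis forms of RPL3 and RPL10, were at most 0.0317 and 0.845 FPKM in any library and were not tested. RPS27L, a p53 target in other cells, was at 1700.5, 2655 and 1404 FPKM in the control group and 1834, 1916 and 1846 FPKM after inhibition, a log2 difference of 0.01. The row named RPS4Y1 lies on chromosome 23 (10528436 to 10544184), not on the Y chromosome, and was at 471 ± 103 against 490.3 ± 116 FPKM (SD, n = 3 each), with no lack of transcripts in the 4 libraries at 0 for EIF1AY. The paralogs RPL22L1, RPL26L1 and RPL7L1, outside the rule, had differences of -0.11, -0.15 and -0.57, and none passed the limma test. RPL7L1, which acts in ribosome assembly, was at 506, 553 and 366 FPKM against 219.8, 366 and 391 FPKM, with overlap.

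RPL23, RPS15 and RPS15A were left out of the fit because a merged locus carries their symbol in some or all libraries. RPL23 is listed only within a merged locus in Control 2, and RPS15 in Control 3. RPS15A has both a merged locus and a row of its own in every library. With the merged locus counted in full, RPL23 was at 3102, 2864 and 2992 FPKM in the control group and 3524, 3521 and 3896 FPKM after inhibition (exact two-sided permutation p = 0.1). RPS15A was at 2090.1, 2028 and 1855 FPKM against 2431, 2278 and 2766 FPKM (exact permutation p = 0.1), and RPS15 at 1935 ± 129.5 against 2517 ± 429.9 FPKM (SD, n = 3 each, exact permutation p = 0.2). RPL23 and RPS15A did not overlap between groups, RPS15 did, and 0.1 is the smallest p that 3 against 3 can give. The neighbouring gene is held in these values for RPL23 only in Control 2, for RPS15 only in Control 3 and for RPS15A in every library. The RPS15A values also add its own row on chromosome 20. FAU, a fusion with a ubiquitin-like protein that lies outside the rule, was at 4457 ± 938 against 4623 ± 548 FPKM (SD, n = 3 each). These FAU values are summed over 3 loci. RPL22, RPL41 and RACK1 were not analysed here.

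The machinery that builds ribosomes held no gene past the adjusted threshold. Of 15 tested genes of RNA polymerase I and its factors 10 lay above 0 with a median of 0.07. For small nucleolar ribonucleoproteins and rRNA modification it was 11 of 22 (median -0.02), for small subunit assembly 15 of 36 (median -0.13), for large subunit assembly 20 of 40 (median -0.003) and for chaperones of single ribosomal proteins 8 of 14 (median 0.16). NIP7, an assembly factor of the large subunit, was at 23.5, 30.7 and 30.1 FPKM in the control group and 14.7, 11.9 and 12.5 FPKM after inhibition, without overlap, a log2 difference of -1.05 ± 0.24 with a limma adjusted p of 0.661. DDX47, a helicase of early rRNA processing, was at 64.1, 59.3 and 58.3 FPKM against 29.4, 41.2 and 36.8 FPKM, also without overlap, a difference of -0.75 ± 0.22 (SE). NSA2 and SDAD1 of the large subunit and UTP23 and NOL10 of the small subunit had differences of -0.46, -0.61, -0.84 and -0.81. Of the 36 small subunit assembly genes 3 lay wholly below, 8.33%, and 1 wholly above, 2.78%. Of the 40 for the large subunit 3 lay wholly below, 7.5%, and 2 wholly above, 5%. Over all tested symbols 5.18% lay wholly below and 8.27% wholly above. In the other direction, the assembly genes wholly above were NLE1 and SENP3 of the large subunit and NOL6 of the small subunit. Their log2 differences were 0.53, 0.34 and 0.24. Outside the assembly lists, TTF1, the terminator of RNA polymerase I, was at 19.8 ± 2.26 against 30.8 ± 6.02 FPKM. HEATR3, which delivers RPL5 to the nucleus, was at 14.3 ± 2.66 against 42.9 ± 6.26 FPKM (SD, n = 3 each). HEATR3 had a limma adjusted p of 0.242, the smallest in these lists.

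Other messages with the same pyrimidine start, mostly of translation factors, had 10 of 22 tested genes above 0 and a median of -0.02. EIF4B, a helper of the initiation helicase, had the smallest p among them. It was at 54.6, 57.0 and 66.1 FPKM in the control group and 94.5, 92.0 and 93.6 FPKM after inhibition, without overlap, a log2 difference of 0.65 ± 0.19 with a limma adjusted p of 0.701. EEF2, the elongation factor that moves the ribosome along, was at 40.8, 45.4 and 43.9 FPKM against 60.5, 53.0 and 57.7 FPKM, and TPT1, an abundant message of the class, at 1206 ± 113 against 1416 ± 130.1 FPKM (SD, n = 3 each). Of the 22 genes 2 lay wholly above, 9.09%, and 0 wholly below, against 8.27% and 5.18% of all tested symbols. Among genes of mTORC1 and of translation control 13 of 25 lay above 0, with a median of 0.01. AKT1S1, an inhibitory partner of mTORC1, was at 1.52, 0.687 and 1.04 FPKM against 2.89, 2.48 and 4.54 FPKM, and NPRL2, part of a complex that restrains mTORC1 when amino acids are short, at 16.0, 10.3 and 13.0 FPKM against 7.92, 4.57 and 8.61 FPKM. Both were without overlap and neither passed the test. Of these 25 genes 3 lay wholly above, 12%, and 1 wholly below, 4%, against the same 8.27% and 5.18%. Of 21 tested genes of ribosome rescue and stress sensing 11 lay above 0 with a median of 0.04.

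The genes whose log2 profile over the 6 libraries was most like the mean of the tested members were ZNF574, TMEM2, SLC5A6, ADRM1 and NFKBIB, with Pearson's r of 0.989, 0.987, 0.985, 0.982 and 0.980. These are the highest coefficients of all tested symbols over 6 libraries that share depth and scaling, and they are a description. ADRM1, a ubiquitin receptor of the proteasome, was at 29.8, 39.1 and 19.7 FPKM in the control group and 47.1, 43.4 and 44.1 FPKM after inhibition. ZNF574, a zinc finger protein, was at 2.35, 2.97 and 1.40 FPKM against 3.56, 3.00 and 3.77 FPKM. As among the members, Control 3 was the lowest library for both.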

How the data were processed

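PolyA RNA-seq libraries of 6 single morulae were analysed, 3 per group. For each library the authors deposited a table made by Cufflinks that holds an FPKM per gene locus and its confidence bounds in FPKM, per the file headers. TopHat2 2.0.14, Cufflinks 2.2.1 and the build bosTau8 are named in the submitters' processing notes, while settings, gene annotation and the treatment of fragments with several matches are not stated in the sources used here. No scaling between libraries is recorded. Loci that share a symbol were added up. Every library held 13295 symbols, of which 13185 were used and 110 with a merged locus or a status other than OK were left out. Depth came from bounds of loci of 100 to 300 bases, where 99.8% to 99.9% of values were whole fragments within 0.05. Of the 84 or 85 member rows per library, 33 to 53 had an FPKM outside their own bounds, so bounds were not used as errors. That is 38.8% to 63.1% of member rows, against 8.28% to 10.6% of all annotated rows. Counts per gene were not recovered.

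Symbols at 1 FPKM or more in at least 3 libraries, 7319 in all, were log2-transformed after adding 1 and tested two-sided with limma (3.58.1, R 4.3.3), the variance trended on the mean, without a block, with Benjamini-Hochberg adjustment at 0.05. Single symbols outside the fit had an exact permutation test. The fit was tested on simulated data. The members and lists were chosen with earlier results of these data known. The text names the 10 most abundant members, the 10 with the smallest p, members without overlap, members by role, paralogs, the 3 genes of each list with the smallest p and the 5 genes with the most similar profile. Some genes that this rule selects are not reported here. RPL21, RPL15, RPS26 and RPL28 were named after their spread was seen. NLE1, SENP3 and NOL6 were named because they lay wholly above. Alternatives were TPM, median-of-ratios and quantile scaling, a pseudocount of 0.1, no filter, a mean of at least 5 FPKM, no trend, array weights, a replicate block, the highest row per symbol, merged rows counted, no symbols at 0, no libraries with Y-linked transcripts, each library left out and, added after the data were seen, the midpoint of the bounds. Positions are those of the files, spans are end minus start, and no sequence is printed.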

Additional observations from a re-analysis of the deposited data

How the results depend on the processing

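No ribosomal protein symbol passed the adjusted threshold of the limma test under any of the 20 alternatives. The number of all tested symbols that passed was 3, and it was 1 without a filter, 1 with a mean of at least 5 FPKM, 5 with array weights, 0 without symbols listed at 0, 0 without the libraries with Y-linked transcripts, 1 with the midpoint of the bounds (chosen after seeing the data), and 0 to 8 with a library left out, the 8 without Control 3. The median difference of the ribosomal protein symbols, 0.13, was 0.075 with median-of-ratios scaling and 0.076 to 0.16 with a library left out. Without the libraries with Y-linked transcripts this median difference was 0.14, against 0.05 over all tested symbols. That of the large subunit, 0.14, was 0.086 with median-of-ratios scaling and 0.077 to 0.17 with a library left out, and that of the small subunit, 0.12, was 0.062 to 0.16. The log2 sum differed by 0.12 between groups, by 0.057 with median-of-ratios scaling, by 0.94 with the midpoint and by 0.086 to 0.14 with a library left out. It differed by 0.13 without the libraries with Y-linked transcripts. The log2 ratio of large to small differed by -0.026, by 0.035 without the libraries with Y-linked transcripts, by 1.05 with the midpoint and by -0.056 to -0.0036 with a library left out. At the midpoint, 2 RPL23A rows of MAT2A-inhibited 2 have an upper bound of 540424 FPKM against an FPKM of about 149, and they carry these 2 midpoint sums. The cause of the other moves was not tested.

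Of 62 genes that the naming rule selects, 15 changed sign under some alternative, and 47 did not. Without the libraries with Y-linked transcripts the log2 difference was 0.097 for RPL10, -0.055 for RPL27, 0.42 for RPL39, -0.15 for RPL5, 0.079 for RPLP0, -0.014 for RPS27L, -0.13 for RPS4Y1 and -0.028 for RPS6. With quantile normalization it was -0.067 for RPL38, -0.025 for RPL5, 0.0018 for RPS27A, -0.078 for RPS27L, -0.029 for RPS29 and -0.0094 for RPS6, and with median-of-ratios scaling -0.035 for RPL5, -0.048 for RPS27L, -0.031 for RPS29, -0.00064 for RPS4Y1 and -0.0038 for RPS6. TPM scaling gave -0.0028 for RPS27L, array weights 0.29 for RPL22L1, -0.024 for RPLP2 and 0.0087 for RPS27A, and the midpoint -0.13 for RPL11, 0.30 for RPS19 and -0.052 for RPS4Y1. With a library left out the difference ranged from -0.48 to 0.26 for RPL22L1, -0.11 to 0.12 for RPL5, -0.11 to 0.018 for RPLP0, -0.029 to 0.15 for RPLP2, -0.15 to 0.12 for RPS19, -0.17 to 0.051 for RPS27A, -0.19 to 0.27 for RPS27L, -0.029 to 0.062 for RPS29 and -0.13 to 0.20 for RPS4Y1.

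Same-numbered libraries correlated at 0.05, 0.10 and 0.19 in their deviations from the group means. Libraries of different number correlated at -0.21 to 0.10. The labels name no pairing and the main fit used none, and whether the numbers mark a shared batch was not tested. With the replicate number as a block, 1 of all tested symbols passed, no ribosomal protein symbol did, and the median of the members was 0.13 as before. With 3 embryos a group, the median 95% interval of a member reached 0.38 to either side, before adjustment. This is not a limit of detection. Members with larger differences, such as RPS25 at 0.41 and RPL39 at -0.51, did not pass the adjusted threshold either.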

Other observations

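The deposited FPKM of ribosomal protein rows often did not lie at the centre of the row's own bounds. Over the 6 libraries, 499 rows had bounds above 0. The FPKM was 0.95 to 1.05 times the midpoint in 352 of them, more than 1.2 times in 132 and less than 0.8 times in 2. For 45 symbols rows near the midpoint and rows above it both occurred. RPL39 was such a case, since its FPKM was 0.99 times the midpoint in MAT2A-inhibited 2 and up to 2.70 times in the other libraries. With the midpoint 57 of 75 members had a difference above 0, with a median of 0.15, and none passed the limma test.

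Some symbols sum several loci. RPL17 has its main locus on chromosome 24 and another of 622 bases on chromosome 21, and RPL23A has its main locus on chromosome 19 and others on chromosomes 6 and X. RPS6 sums loci on chromosomes 2 and 8. FAU has its main locus on chromosome 29. Its loci on chromosomes 5 and 20 held 912 to 1277 FPKM and 137 to 268 FPKM. The row named RPS15A is a locus of 458 to 491 bases on chromosome 20 at 266 to 398 FPKM, while the merged locus that carries the same symbol lies on chromosome 25.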
